A study of Mus musculus with 3 samples.

Results

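The genes described here are developmental transcription factors of the homeobox families that lie outside the Hox clusters, together with the Pax and Hand patterning factors. They were taken from the arrays by gene name, as every probe for a gene whose name starts with Lhx, Isl, Pbx, Meis, Pitx, Dlx, Msx, Irx, Nkx, Pax, Meox, Alx, Gsc, Hand, Barx or Hhex, or with the shared first letters of Six2 to Six5, with Lhx9 left out. That choice gave 76 of the 27745 gene names on the arrays, with 119 probes. Of these, 69 were genes of the named families, with 106 probes, and 7 were other genes or transcripts whose names begin with the same letters (Islr, Islr2, Paxip1, Pbxip1, Dlx6as, Dlx6os1 and Six6os1). The last 7 are given apart and enter no family count.

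Homeobox genes encode proteins that bind DNA through a homeodomain, and many of those domains recognise sites built around the letters TAAT. In the embryo such factors divide tissues into territories along the body, limbs, face, heart and brain. Cultured cells of connective tissue often keep part of the pattern of the place they came from. The families differ in partners: LIM factors act with Ldb proteins, Six2 and its relatives with Eya coactivators, and Meis and Pbx factors, of the TALE class, bind DNA together with each other and with Hox proteins.

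RNA came from cultured primary aortic endothelial cells of mice, per the labels. The 2 groups were cells of FVB/N Pim1 knockout mice and cells of FVB/N wildtype mice, both labelled as female and 12 weeks old, grown on gelatine and collected 24 hours after seeding. Pim1 is a serine/threonine kinase. On each of 3 two-colour arrays the knockout RNA carried Cy5 and the wild-type RNA Cy3, with no dye swap, so that dye and genotype effects on a probe cannot be told apart. The labels call the arrays biological replicates and do not say whether the wild-type RNA was 1 pool. The p-values therefore measure the spread between 3 arrays, whose number limits the precision.

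All ratios below are knockout over wild type on the log2 scale, given as mean ± SD over 3 arrays. A gene was called when limma's adjusted p was under 0.05 over all tested probes. Where the channel intensities of a called gene are said not to overlap, that describes a gene already selected and is no further support. Of all 13453 genes tested, 2707 were called (20.1%), of which 1167 were higher (8.67%) and 1540 lower (11.4%). With the arrays centred on their median in place of loess, 55.6% of the called genes were higher, against 43.1% here. Array 1 correlated with the others at 0.681 and 0.699 over probes, and arrays 2 and 3 at 0.905. Without array 1 the called genes numbered 5600, without array 2 669 and without array 3 636. Pim1 itself had ratios of -0.97, -1.16 and -0.99 (mean -1.04 ± 0.10, adjusted p = 0.002963, 2.05-fold lower). Its probe was still above background in the knockout channel on all 3 arrays, at log2 intensities of 7.49, 7.35 and 7.17 against 8.45, 8.51 and 8.15 in the wild type. Whether that probe lies in the deleted part of the gene was not analysed here. Xist was at least 168-fold lower in the knockout and the Y-linked Eif2s3y at least 28.1-fold higher, although both groups are labelled female, so that sex and genotype cannot be told apart.

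The cell type label had little marker support. The endothelial genes Pecam1, Cdh5, Tie1 and Erg were well above background on no array. Of 15 endothelial markers 6 were tested, with 2 higher and 1 lower. Eng (ratio 2.51, mean log2 intensity 10.4) and Egfl7 (1.42, 10.4) were higher, and Fli1 (-0.87, 8.88) was lower. Each of these was above background in both channels of all 3 arrays. Kdr, Esam and Plvap did not pass. The summed intensity of the tested markers was 5577 to 7224 in the knockout against 2157 to 2628 in the wild type. Such sums weigh bright genes most. In the knockout the brightest here were Eng (mean log2 intensity 11.7 against 9.16 in the wild type) and Egfl7 (11.2 against 9.74). Of 12 mesothelial and epithelial markers tested out of 14, 8 were lower and 1 higher. Their sums were 12980 to 16010 against 81490 to 101800. In the wild type the brightest of these were Msln (mean log2 intensity 15.6 against 12.2 in the knockout) and Krt19 (14.8 against 10.7). Epcam and Muc16 were above background on no array. Of 12 fibroblast markers, all tested, 8 were higher and 1 lower, with sums of 220000 to 247300 against 182000 to 216400. Of 10 smooth muscle and pericyte markers 8 were tested, with 2 higher, 2 lower and overlapping sums of 56500 to 59550 against 54440 to 67060. Of 6 chondrocyte and bone markers 5 were tested and 3 were lower, of 7 macrophage markers 4 were tested and 2 were lower, of 6 neural crest and neural markers 5 were tested and 1 was higher, and none of 6 skeletal muscle markers was tested. The part of these cell type differences in the ratios below was not tested. In such bulk RNA, fewer cells of a type and less RNA per cell cannot be told apart.

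Most of the patterning factors were dim or not above background on these arrays. Of the 69 family genes, 43 had a probe well above background in at least 1 channel of 1 array and 26 had none. In both channels of all 3 arrays, 22 genes were above background. Those without signal included Barx1, Dlx3, Dlx6, Msx3, Hand1, Irx3, Isl1, Lhx3, Lhx5, Lhx8, Meox2, Nkx2-2, Nkx6-2, Nkx6-3, Pax1, Pax3, Pax4, Pax6, Pax7, Pax8, Six2, Six3, Six6, Gsc and Pitx1. Dlx5, Msx2, Irx6, Lhx1, Nkx2-5 and Pax5 passed on 1 array in the wild-type channel, and Meox1 on 1 array in the knockout channel. The remaining 36 genes, above background in 1 channel on at least 2 arrays, were tested.

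**Figure D1:**
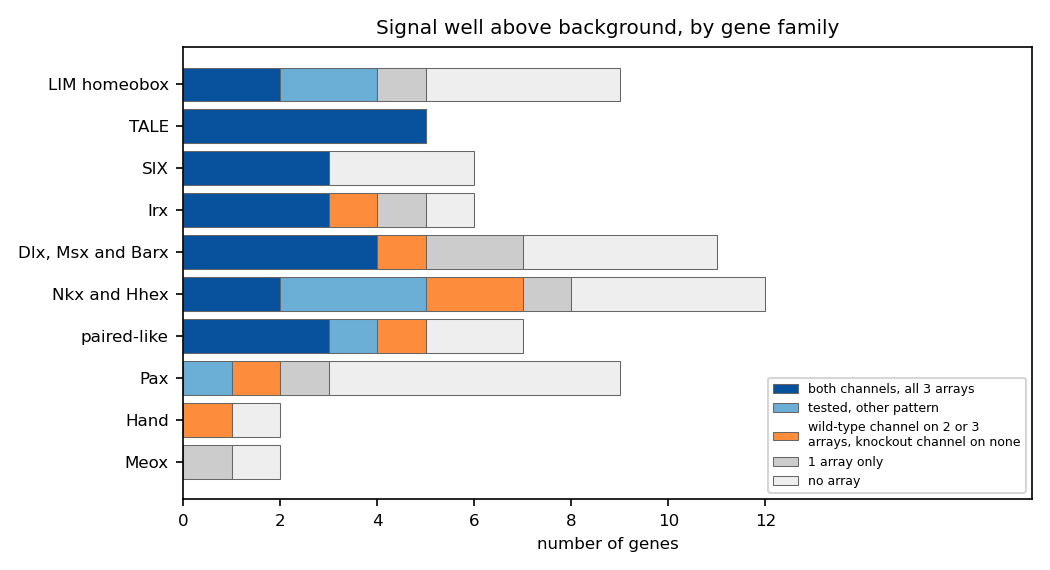
Number of genes (horizontal axis) of each family by where a probe was well above background: in both channels of all 3 arrays, tested with another pattern, in the wild-type channel on 2 or 3 arrays with the knockout channel on none, on 1 array only, or on no array. All 5 TALE genes were above background in both channels, while 6 of the 9 Pax genes were above background on no array.

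The 5 TALE genes, of the Meis and Pbx type, were the one family with every member above background in both channels of all 3 arrays. In the Pax family 6 of 9 genes were above background on no array, and neither Meox gene was tested. Among all families, 7 genes had signal for the wild type on 2 or 3 arrays and for the knockout on none. Among them were Pax9, Nkx2-9, Dlx4, Hand2, Irx1 and Nkx2-3. A gene that is measured in 1 channel alone can pass the filter only on the side where it is high, so no count over these 7 is offered as evidence.

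Of the 36 tested family genes, 11 were called (30.6%, against 20.1% of all genes). In the knockout 6 were higher (8.67% of all genes were) and 5 lower (11.4% of all genes were). The 5 that were lower include Pax9 and Nkx2-9, which were measured in the wild type alone. The 25 others did not pass. The median ratio of the 36 was -0.03, beside -0.02 for all genes. Of the 11 called genes, 4 differed at least 2-fold: Irx2, Msx1, Lhx6 and Pax9, the last measured in the wild type alone. Of all 13453 genes, 901 (6.7%) were called and differed that much. The tested members were dim, with a median log2 intensity of 6.73 against 9.94 for all tested genes. With all tested genes ordered by intensity and split into 4 bins of equal size, 4 of 25 members in the dimmest bin were called (17.2% of all genes there). In the next bins 6 of 7 (25.1%), 1 of 3 (20.0%) and 0 of 1 (18.1%) were called. Counted by probe, 17 of 50 tested family probes were called (34%), beside 17.1% of all 25075 tested probes, though probes of a gene are not independent. The 11 calls became 15 without array 1, 4 without array 2 and 5 without array 3. Of all genes, 41.6%, 4.97% and 4.73% were called in these fits. Without array 1 the share, 15 of 36 members, was thus near that of all genes. The 4 and 5 of 36 in the other fits lay above it.

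**Figure D2:**
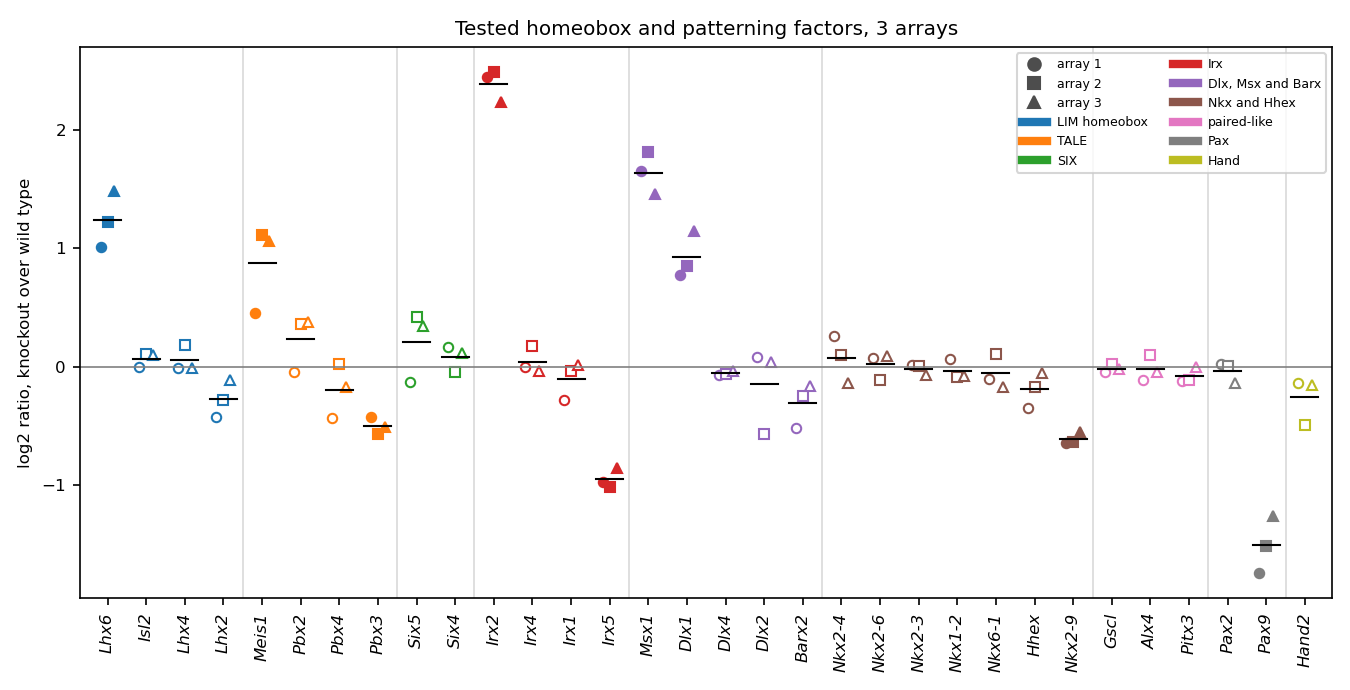
Log2 ratio of knockout over wild type (vertical axis) for 32 of the tested family genes, grouped by family, with 1 symbol per array and a bar at the mean of 3 arrays. Filled symbols mark called genes, and Irx2 (2.39), Msx1 (1.64) and Lhx6 (1.24) at the top and Pax9 (-1.51) at the bottom lie farthest from 0.

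Among the Iroquois genes, which act in early territories of heart, limb and nervous system, 1 member rose and 1 fell. Irx2 rose 5.26-fold. Its brightest probe had log2 intensities of 8.95, 8.85 and 9.04 in the knockout and 6.49, 6.35 and 6.80 in the wild type. All 3 knockout values lay above all 3 wild-type values. The ratios were 2.45, 2.49 and 2.24 (mean 2.39 ± 0.14, adjusted p = 0.0003385). Irx2 was the factor with the highest ratio of the 36 and kept its call without each array (highest adjusted p = 0.01051).

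Irx2 had 3 probes, shown by their first 30 bases because the height of its ratio depended on the probe, with coordinates as the array files give them in mm8. None of the letters is capitalised.
Irx2 probe at chr13:73099837-73099896, plus strand: tatgagaacttgttgtcatagtatagcttc
Irx2 probe at chr13:73099018-73099679, plus strand: tacctataggagggccaaggtcagcagtgc
Irx2 probe at chr13:73097724-73097783, plus strand: cggggatgccttgtgcgaatcaggctcaga
In the order shown, the ratios were 2.39, 2.02 and 0.63, and all 3 probes were called. The third was above background in the knockout on all 3 arrays and in the wild type on none, which leaves a bound of at least 1.54-fold higher. Its call was lost without array 2 (adjusted p = 0.1099) and without array 3 (adjusted p = 0.1011). The second probe spans more genome than its own 60 bases, as a probe across a splice junction does. Where the other probes lie within exons was not analysed here.

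Irx5, known for its role in the gradient of repolarisation across the heart wall, was lower. Its knockout intensities of 6.77, 6.84 and 6.85 all lay below the wild-type intensities of 7.75, 7.87 and 7.71. The ratios were -0.98, -1.02 and -0.85 (mean -0.95 ± 0.09, adjusted p = 0.003554, 1.93-fold lower). Without array 2 the adjusted p was 0.05117. The other measured Iroquois genes gave no call: Irx4 had a ratio of 0.04 (adjusted p = 0.8136) and Irx1 of -0.10 (adjusted p = 0.5741). In mm8, Irx2 lies on chromosome 13 between Irx1 and Irx4, with 672 kb and 635 kb between the probes. Irx5 lies on chromosome 8 with Irx3 and Irx6, neither of which could be tested. Neither of the tested neighbours of Irx2 was called.

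Msx1, a repressor found in undifferentiated mesenchyme of limb, tooth and face and known to respond to bone morphogenetic proteins, rose 3.12-fold. Its knockout intensities were 9.13, 9.21 and 9.23 and its wild-type intensities 7.47, 7.40 and 7.77. The groups did not overlap, and the ratios were 1.65, 1.81 and 1.46 (mean 1.64 ± 0.18, adjusted p = 0.001007). The call held without each array (highest adjusted p = 0.01795). Msx1 had a second probe directly beside the first, and both are shown because they differed in brightness and ratio (mm8, first 30 bases, no capitals).
Msx1 probe at chr5:38109315-38109374, minus strand: acacttcctcctggttgtcgcttcctaaac
Msx1 probe at chr5:38109253-38109309, minus strand: ttggtcggaagatgttcaggtttttcgagt
The second probe was spotted 10 times per array and had a ratio of 0.33 ± 0.08 (adjusted p = 0.06831). Its mean log2 intensity of 6.32 was close to the background, against 8.36 for the first probe. The wild-type channel of that second probe was above background on no array.

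Of the Dlx genes, which pattern the jaw and the forebrain and are arranged as neighbouring pairs, Dlx1 rose and Dlx2 did not pass. Dlx1 had knockout intensities of 9.74, 10.00 and 10.20 against 8.96, 9.15 and 9.06 in the wild type. The lowest knockout array lay above the highest wild-type array, and the ratios were 0.77, 0.85 and 1.14 (mean 0.92 ± 0.19, adjusted p = 0.006663, 1.90-fold higher). Without array 2 the adjusted p was 0.0631 and without array 3 it was 0.06971. The probes of Dlx1 and Dlx2 are 9.995 kb apart on chromosome 2. Dlx2 had ratios of 0.09, -0.57 and 0.04 (mean -0.15 ± 0.37, adjusted p = 0.5781), so its arrays had both signs. Dlx4 had a ratio of -0.06 (adjusted p = 0.7242). Barx2, a homeobox factor of muscle and epithelium, had ratios of -0.51, -0.25 and -0.16 (mean -0.31 ± 0.19, adjusted p = 0.1229), lower on each array without passing the test.

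Lhx6, a LIM factor known from cortical interneurons and from the mesenchyme of the jaw and teeth, rose 2.36-fold. The knockout intensities of 9.66, 10.26 and 10.63 lay above the wild-type intensities of 8.65, 9.03 and 9.15 without overlap. The ratios were 1.01, 1.22 and 1.49 (mean 1.24 ± 0.24, adjusted p = 0.00344), and without each array in turn the adjusted p reached at most 0.04361. A second Lhx6 probe differed, and both are shown for that reason (mm8, first 30 bases, no capitals).
Lhx6 probe at chr2:35903988-35904047, minus strand: catacctttcatgttgtgctttgtaaatgt
Lhx6 probe at chr2:35905695-35905752, minus strand: atcacagcagcaatggctaattcagcttga
The second had a ratio of 0.14 ± 0.03 (adjusted p = 0.3528) at a mean log2 intensity of 6.46, against 9.57 for the first. The other measured LIM factors did not pass. Lhx2 had ratios of -0.43, -0.28 and -0.11 (mean -0.27 ± 0.16, adjusted p = 0.143), while Isl2 stood at 0.07 and Lhx4 at 0.05.

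**Figure D3:**
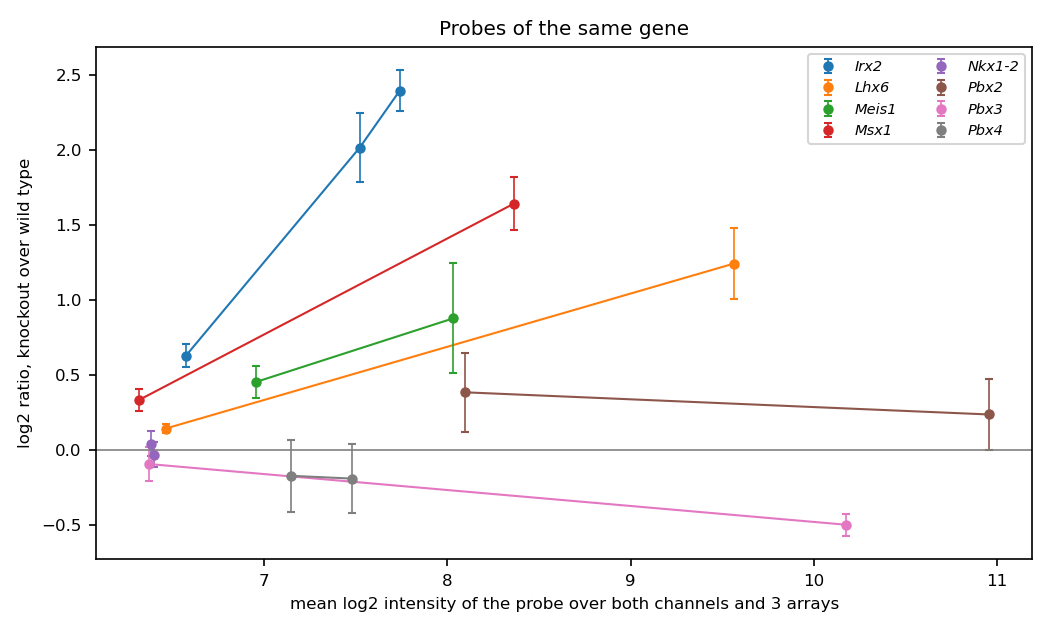
Log2 ratio (vertical axis, mean with SD over 3 arrays as error bars) against the mean log2 intensity (horizontal axis) of each tested probe, for 8 of the genes with several tested probes, where lines join probes of 1 gene. In Irx2, Msx1, Lhx6, Meis1, Pbx3 and Pbx4 the dimmest probe had the ratio nearest to 0. In Pbx2 and Nkx1-2 the dimmer probe lay farther from 0 than the brighter one.

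Across the 10 genes with several tested probes, the ratios had the same sign within 9 genes, the exception being Nkx1-2 (-0.03 and 0.04). The median range between probes of a gene was 0.42. Of the genes related to Six2, which act with Eya coactivators in muscle and kidney precursors, Six4 had a ratio of 0.08 (adjusted p = 0.6455). Six5 had ratios of -0.13, 0.42 and 0.34 (mean 0.21 ± 0.30, adjusted p = 0.3605). Its adjusted p was 0.008955 without array 1, a fit in which 41.6% of all genes were called. It was 0.8161 without array 2 and 0.7397 without array 3.

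The called TALE genes split in direction. Meis1, a Hox and Pbx cofactor of blood stem cells and vessels, rose 1.84-fold. Its knockout intensities of 8.24, 8.48 and 8.72 lay above its wild-type intensities of 7.78, 7.36 and 7.66. The ratios were 0.45, 1.12 and 1.06 (mean 0.88 ± 0.37, adjusted p = 0.02039), with array 1 the lowest. A second Meis1 probe was called at 0.45 ± 0.11 (adjusted p = 0.03412). The brightest probe had an adjusted p of 0.1419 without array 2 and 0.147 without array 3. Pbx3, a partner of Hox and Meis proteins, was 1.42-fold lower. Its knockout intensities of 9.83, 9.94 and 10.01 lay below the wild-type intensities of 10.25, 10.51 and 10.52. The ratios were -0.42, -0.57 and -0.51 (mean -0.50 ± 0.07, adjusted p = 0.02277). The Pbx3 call was lost without array 2 (adjusted p = 0.1725) and without array 3 (adjusted p = 0.1649), and also by the software's own ratio, with median centring and with the mean of the probes. A dimmer Pbx3 probe had a ratio of -0.10 (adjusted p = 0.565).

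Pbx2 did not pass, with ratios of -0.04, 0.36 and 0.38 (mean 0.23 ± 0.24, adjusted p = 0.2576). Array 1 lay close to 0 and the other arrays did not, and without array 1 the adjusted p was 0.01067. In that fit 41.6% of all genes were called. Without array 2 the adjusted p of Pbx2 was 0.6644 and without array 3 0.6653. A dimmer Pbx2 probe had a ratio of 0.38 (adjusted p = 0.1057). Pbx4 had a ratio of -0.19 ± 0.23 (adjusted p = 0.3371).

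**Figure D4:**
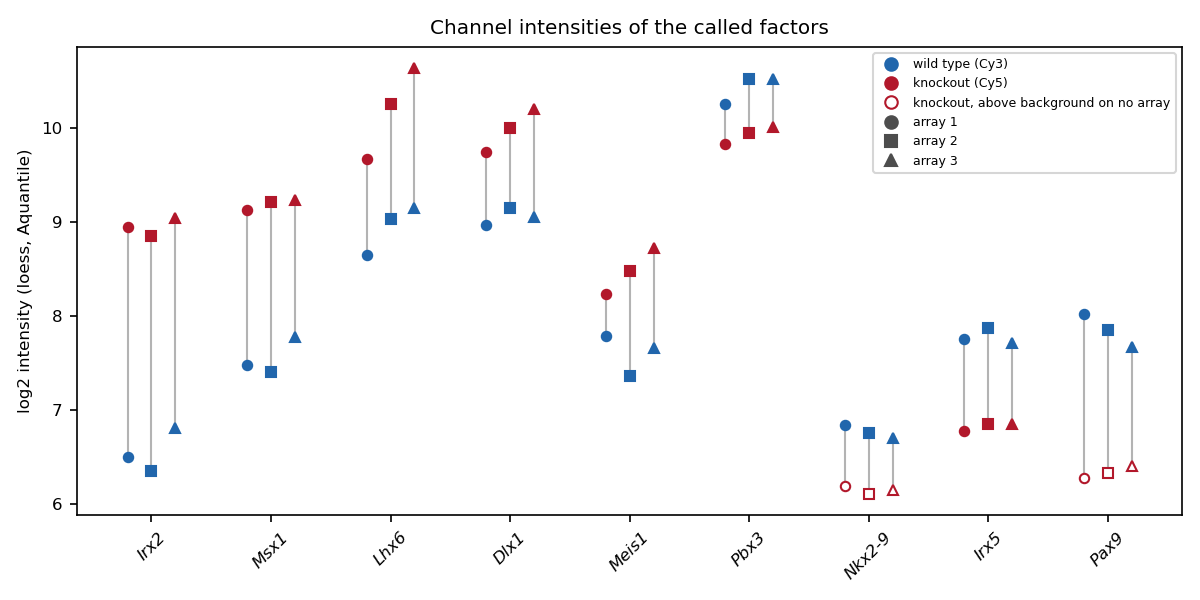
Log2 intensity (vertical axis) of 9 of the called genes in the wild-type (blue) and knockout (red) channel of each array, joined by a line per array; open red symbols mark a knockout channel that was above background on no array. The knockout values of Pax9 and Nkx2-9 all lie at or below 6.41, while Pbx3 and Lhx6 reach 10 or more.

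The factors that were lower in the knockout, other than Irx5 and Pbx3, were measured in the wild-type channel alone. For these a bound is given, computed on the 2 channels apart (loess, then Aquantile scaling), which without a dye swap are open to dye bias. Pax9, a factor of pharyngeal pouches, teeth and vertebrae, was at least 2.85-fold lower. Its wild-type intensities of 8.02, 7.85 and 7.67 stood above background on all 3 arrays, and its knockout intensities of 6.28, 6.33 and 6.41 on none. The ratios were -1.74, -1.51 and -1.27 (adjusted p = 0.001918), and the adjusted p reached at most 0.02967 without any 1 array. Nkx2-9, a factor of the floor plate and the pharynx, was at least 1.53-fold lower. Its wild-type intensities were 6.84, 6.75 and 6.70 and its knockout intensities, not above background, 6.19, 6.11 and 6.15. The ratios were -0.65, -0.64 and -0.55 (adjusted p = 0.01249). Without array 2 its adjusted p was 0.1153 and without array 3 0.1048.

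The paired-like Pitx3, Alx4 and Gscl had ratios between -0.08 and -0.02, with adjusted p-values of 0.6075 or more. Hand2, a basic helix-loop-helix factor of heart and limb, had ratios of -0.14, -0.49 and -0.15 (mean -0.26 ± 0.20, adjusted p = 0.1857). Its knockout channel was above background on no array. Its adjusted p was 0.03372 without array 1, a fit in which 41.6% of all genes were called. It was 0.6406 without array 2 and 0.3662 without array 3. Among the other Nkx genes and Hhex, a factor of early endothelium and liver, 6 did not pass, with ratios from -0.19 for Hhex (adjusted p = 0.2727) to 0.07 for Nkx2-4. Pax2 had a ratio of -0.04 (adjusted p = 0.834).

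Nkx2-9 and Pax9 are neighbours, with 98.7 kb between their probes on chromosome 12 in mm8, and both were lower. Nkx2-1, beside them in the same cluster and named Titf1 in the array files, was above background on no array. Other pairs within 1 megabase gave 1 call each: Dlx1 without Dlx2, and Irx2 without Irx1 or Irx4.

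Promoter sequences are shown for the members with the highest ratios and for the neighbouring pair. They are RefSeq sequences of GRCm38.p6, from 250 bases before to 50 bases after the start of each gene. Capitals mark TAAT, the core of many homeodomain sites, on either strand (so also ATTA), and TGACAG, a core bound by Meis factors, on either strand. The motifs share no bases in these windows.
Irx2 promoter at chr13:72628570-72628869, plus strand: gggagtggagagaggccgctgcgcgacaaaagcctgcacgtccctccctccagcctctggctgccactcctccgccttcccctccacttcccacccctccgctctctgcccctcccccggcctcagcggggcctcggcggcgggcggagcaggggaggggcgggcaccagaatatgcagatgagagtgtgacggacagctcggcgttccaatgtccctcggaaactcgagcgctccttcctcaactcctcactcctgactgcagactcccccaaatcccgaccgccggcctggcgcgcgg
Msx1 promoter at chr5:37824536-37824835, minus strand: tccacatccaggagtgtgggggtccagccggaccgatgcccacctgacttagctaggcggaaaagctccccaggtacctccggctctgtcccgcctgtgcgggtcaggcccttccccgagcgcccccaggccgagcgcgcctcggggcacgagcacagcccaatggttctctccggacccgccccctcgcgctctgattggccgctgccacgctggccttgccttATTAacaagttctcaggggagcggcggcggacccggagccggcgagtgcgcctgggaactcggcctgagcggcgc
Pax9 promoter at chr12:56695221-56695520, plus strand: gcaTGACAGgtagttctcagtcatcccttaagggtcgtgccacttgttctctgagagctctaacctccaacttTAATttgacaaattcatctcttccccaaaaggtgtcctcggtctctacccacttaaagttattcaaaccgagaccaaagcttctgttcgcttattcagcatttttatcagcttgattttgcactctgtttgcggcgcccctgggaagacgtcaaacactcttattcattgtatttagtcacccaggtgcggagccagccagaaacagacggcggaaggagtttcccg
Nkx2-9 promoter at chr12:56613235-56613534, minus strand: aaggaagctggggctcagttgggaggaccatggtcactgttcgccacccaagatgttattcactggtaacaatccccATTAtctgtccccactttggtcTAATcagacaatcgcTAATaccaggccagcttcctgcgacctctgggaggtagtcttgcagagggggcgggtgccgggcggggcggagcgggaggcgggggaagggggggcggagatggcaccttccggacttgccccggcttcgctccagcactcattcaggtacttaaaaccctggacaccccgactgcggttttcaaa
The Irx2 and Msx1 windows were rich in G and C, at 69.0% and 70.0%, with 25 and 29 CpG pairs. The Nkx2-9 window held 59.3% and 15 CpG pairs and the Pax9 window 47.0% and 11, beside medians of 52.7% and 7 over 32851 promoters. TAAT occurred 0 times in the Irx2 window, 1 time in the Msx1 and Pax9 windows and 3 times in the Nkx2-9 window. Among all promoters 58.0% held TAAT and 19.2% held TGACAG, which was found here in the Pax9 window. Of the 11 called genes, 7 matched a RefSeq promoter by symbol, with 9 promoters in all. Of those, 4 held TAAT, 2 TGACAG, 6 the GC box GGGCGG (35.7% of all promoters) and 1 the TATA box TATAAA (13.6%), each sought on both strands. A match in such a window is a description of letters and shows no binding.

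Partners of these factors included called genes in both directions. Of 36 listed cofactors 29 were tested, and 6 were called (20.1% of all genes were), 4 higher and 2 lower, with a median ratio of 0.12 beside -0.02 for all genes. A share of calls like that is near the one over all genes. Among the Eya genes, coactivators of Six2 and its relatives, Eya4 rose 3.29-fold with ratios of 1.53, 2.09 and 1.53 (adjusted p = 0.00211). Eya3 was higher at 0.50 ± 0.08 (adjusted p = 0.02397). Eya2, above background in the wild type alone, was at least 1.39-fold lower (adjusted p = 0.03198). The 3 called Eya genes thus did not share a direction.

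Of the LIM partners, Ssbp4 was higher at 0.98 ± 0.41 (adjusted p = 0.01811) and Lmo1 lower, with ratios of -1.83, -1.38 and -1.24 (adjusted p = 0.0031). Ldb1, the common partner of LIM factors, had a ratio of 0.25 (adjusted p = 0.1322). The TALE repressor Tgif2 rose 3.73-fold, with ratios of 1.51, 2.03 and 2.15 (adjusted p = 0.00171). Eya4, Tgif2 and Lmo1 kept their calls without each array, with adjusted p-values of at most 0.02575, 0.02704 and 0.03594. Eya2, Eya3 and Ssbp4 did not. Without array 2 their adjusted p-values were 0.2132, 0.1793 and 0.1325, and without array 3 0.1545, 0.1401 and 0.1248.

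Of 68 other homeobox genes outside the Hox clusters, 41 were tested, with 6 higher (8.67% of all genes were), 6 lower (11.4% of all genes were) and a median ratio of -0.07. Those that were higher included Vax2 (2.36 ± 0.15, adjusted p = 0.00036), Tgif2, the tendon factor Mkx (1.86 ± 0.24), Emx2 (1.69 ± 0.21) and Tshz3 (1.09 ± 0.40). Vax2, a factor of the ventral eye, rose 5.12-fold. Those that were lower were Prrx2 (-1.07 ± 0.40), Hopx (-1.01 ± 0.61), Cux1 (-0.50 ± 0.04), Zfhx3 (-0.49 ± 0.10), Satb1 (at least 1.70-fold) and Zfhx4 (at least 1.69-fold). The knockout channel of Satb1 and Zfhx4 was above background on no array. The value for Cux1 is that of its brightest probe. Its call was lost with the mean of its probes, and among the alternatives its ratio came as near to 0 as -0.06. Vax2, Mkx and Emx2 kept their calls without each array (adjusted p at most 0.01175, 0.01972 and 0.02217). For Tshz3, Prrx2, Hopx, Cux1, Zfhx3, Satb1 and Zfhx4 the adjusted p lay between 0.06404 and 0.1625 without array 2 and between 0.06698 and 0.1959 without array 3.

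Of 31 signals and transcription factors known to act upstream or downstream of these families, 19 were tested, with 3 higher (8.67% of all genes were), 8 lower (11.4% of all genes were) and a median of -0.13. Fgf10, a mesenchymal growth factor, rose 2.73-fold with ratios of 1.93, 1.22 and 1.19 (adjusted p = 0.00624). Nr2f2 (0.69 ± 0.24) and Gli3 (0.41 ± 0.10) were also higher. Mef2c, a muscle and endothelial factor, was 3.56-fold lower with ratios of -1.77, -1.95 and -1.77 (adjusted p = 0.00054). Myocd, a coactivator of smooth muscle genes, was at least 2.22-fold lower. Sox9 (-0.78), Ccnd2 (-0.71), Bmp4 (-0.57), Tbx18 (-0.55), Runx2 (-0.50) and Fgf8 (-0.39) were lower by less than 2-fold. Bmp4, which can induce Msx1, was lower and Msx1 was higher, and a link between them was not tested.

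Of those 11, Mef2c and Fgf10 kept their calls without each array (adjusted p at most 0.01532 and 0.04633). Myocd had an adjusted p of 0.05876 without array 3. For Nr2f2, Gli3, Sox9, Ccnd2, Bmp4, Tbx18, Runx2 and Fgf8 the adjusted p lay between 0.06226 and 0.2185 without array 2 and between 0.05789 and 0.2593 without array 3.

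Among the names that match the rule by their letters alone, Islr was called. It encodes a protein with leucine-rich repeats and is no homeobox gene. Its ratios were -2.34, -1.28 and -1.42 (mean -1.68 ± 0.58, adjusted p = 0.008315), with array 1 the lowest, and without array 3 the adjusted p was 0.05948. A second Islr probe had a ratio of -0.41 ± 0.54 (adjusted p = 0.2446). Pbxip1, which binds Pbx proteins, had a ratio of 0.28 (adjusted p = 0.2437), Paxip1 of -0.03 and the noncoding Dlx6as of -0.14. Islr2, Dlx6os1 and Six6os1 were above background on no array.

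**Figure D5:**
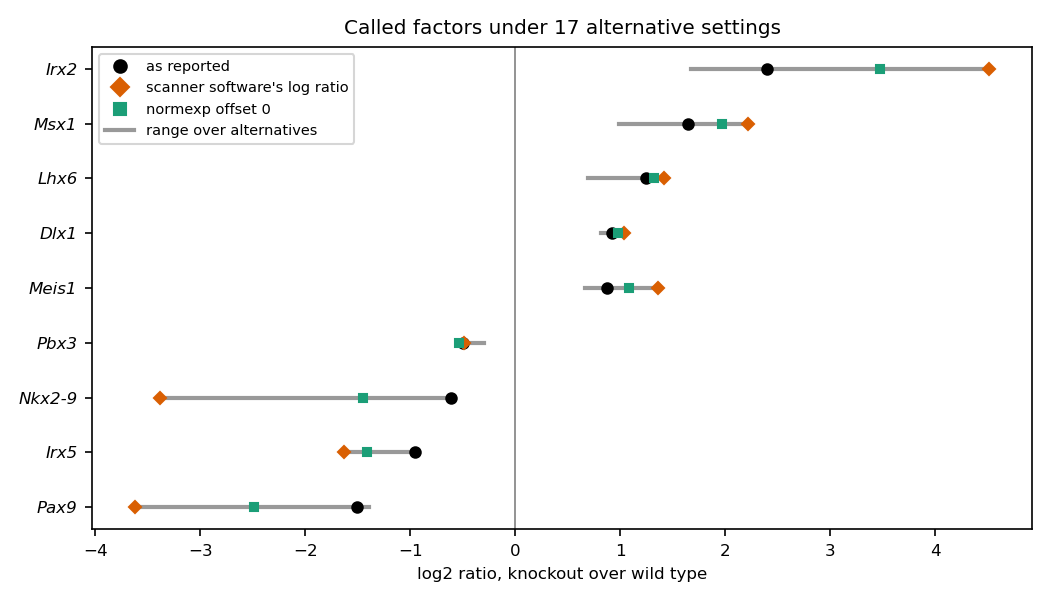
Log2 ratio (horizontal axis) of 9 called genes as reported (black), by the scanner software's own log ratio (orange), with a normexp offset of 0 (green) and over 17 alternatives (grey line). No range crosses 0, and the software's ratio lies farther from 0 than the reported one for all but Pbx3, for which the values are -0.49 and -0.50.

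The size of the ratios of dim factors depended on how background was handled. By the scanner software's own ratio Irx2 was 4.52, Irx5 -1.64, Meis1 1.36, Pax9 -3.63 and Nkx2-9 -3.39. The offset of 50 used here pulls dim probes towards 0. Taking the mean of a gene's probes gave 1.68 for Irx2, 0.99 for Msx1, 0.69 for Lhx6 and -0.30 for Pbx3. The direction of each called gene was the same in all 17 alternatives that gave a value.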

How the data were processed

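The arrays were scanned and the spots read with Agilent Feature Extraction 9.5.3.1, per the submitters' processing notes. Per the file headers, the deposited files hold pixel intensity (mean and median) and background intensity of 45018 spots per array. They also give the software's log10 ratio of Cy5 over Cy3, and the deposited value table held the same log10 ratio (largest difference 0). No spot was saturated.

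Here the mean intensities were corrected by normexp with an offset of 50 against the median local background. Loess within each array then normalised the log2 ratios, with 1639 control spots and outlier spots at weight 0. Outlier spots (121, 140 and 136) were left out, and spots of a probe were averaged to 41174 probes. A probe with several spots was above background where most of them were. Probes with signal well above background for 1 genotype on 2 or more arrays (25075) entered the test of the mean ratio against 0 in limma 3.58.1 (R 4.3.3), with prior degrees of freedom of 3.46 and Benjamini-Hochberg adjustment over all tested probes. Between 53.8% and 57.2% of probes were above background in the knockout and between 58.4% and 62.5% in the wild type. The brightest tested probe stood for its gene. All other genes were named through RefSeq tables (19754 genes), and 8058 probes had no name. For them, 276 probes against their gene's strand were left out, and no member probe was of that kind. Coordinates are those of the array files.

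Tested members were named, members without a test were listed by detection, and called genes of the cofactor and related lists were named. The members and lists were chosen with earlier results of these data known. The pipeline was tested on simulated data. The 17 alternatives covered background, ratios, normalisation, filters, variance, weights, threshold, probe choice and each array left out. Lhx9 was not analysed here, and some members that enter the counts are not reported here by name.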

Additional observations from a re-analysis of the deposited data

How the results depend on the processing

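With an adjusted p under 0.01, 7 member genes were called, 2 of them lower, and 960 of all genes. Array weights gave 4521 calls over all genes and added Pbx2 among others. The count of lower members, 5 as reported, was 3 with median centring, which lost Pbx3 among others, and 2 where both channels had to pass, since members such as Pax9 and Nkx2-9 could not be tested there. Leaving out 1 array gave 4 to 15 member calls, 3 to 9 higher, 1 to 6 lower and 636 to 5600 calls over all genes. The software's ratio and the value table lost Pbx3 and added Barx2, Dlx4 and Hand2. Without a filter 69 members were tested and 10 were called, a share near the 12.6% of all genes called there. Without background subtraction Hand2 was added, and with the mean of a gene's probes Pbx3 was lost. Of called genes in the related lists, median centring lost genes that include Bmp4, Ccnd2, Cux1, Eya2, Eya3, Fgf8, Gli3, Runx2, Sox9, Tbx18 and Zfhx3. The software's ratio lost Cux1, Gli3, Hopx, Runx2 and Zfhx3 from those lists. With the mean of a gene's probes, the calls of Cux1, Eya3, Runx2 and Tbx18 were lost. The cause of these changes was not tested beyond what each alternative leaves out. Irx2, Msx1, Lhx6 and Pax9 kept their calls in every alternative that tested them. Signal over background limits the dim members: a factor above background in 1 channel has a bound only, and a factor above it in none has no measured difference. The test is paired by array, since each ratio sets a knockout RNA against the wild-type RNA on the same array.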

Other observations

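Some genes of these families stand on the arrays under older names and were outside the name rule. Meis2, a cofactor of Hox and Pbx proteins named Mrg1 in the array files, was bright, with a mean log2 intensity of 11.5 on its brightest probe. Its ratios there were -0.39, -0.03 and 0.04 (mean -0.13 ± 0.23, adjusted p = 0.5257), and a second probe had a mean of -0.32 (adjusted p = 0.1965). Meis3, named Mrg2, had ratios of -0.69, -0.31 and -0.40 (mean -0.47 ± 0.20, adjusted p = 0.04651). That call was lost without array 2 (adjusted p = 0.1581) and without array 3 (adjusted p = 0.2035). Meis1 was thus higher, Meis3 lower and Meis2 not called. Alx1, named Cart1, and Nkx3-2, named Bapx1, were above background on no array.

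Repeated spots gave a measure of technical spread within an array, for dim probes only. Of the member probes, 8 were printed 10 times on each array, and the SD of their log2 ratio among spots lay between 0.05 and 0.13. The median SD between arrays was 0.15 for the tested members and 0.20 for all genes. The median log2 intensities were 6.73 and 9.94, and the offset also shrinks the spread of dim probes. These SDs therefore do not show that the members were measured more closely.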
